A study of Homo sapiens with 3 samples.

Results

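The COPII coat wraps the vesicles that carry newly made proteins out of the endoplasmic reticulum (ER). It was examined here through its 10 genes SAR1A, SAR1B, SEC23A, SEC23B, SEC24A, SEC24B, SEC24C, SEC24D, SEC13 and SEC31A, out of 18639 genes measured. All probes that the array annotation assigns to these genes were taken, 11 in all of 21707 probes with a gene symbol. SEC24A had 2 probes and the other 9 genes had 1 each. The genes were chosen by their array signals at both doses against DMSO, so every ratio below describes the values that chose them and is no independent evidence.

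The cells were HT29, a line established from a human colorectal adenocarcinoma. They received DMSO as solvent control, or a derivative of linderapyrone at 5 or 20 µM, for 24 h. Total RNA of each culture was labelled with Cy5 and read on 1 one-colour Toray oligonucleotide array, so there were 3 arrays and 1 per group. Doses are in mM in the titles and in µM in the treatment labels, and µM was used. The cell line and the incubation time were common to all 3 groups. No source used here gives the structure of the derivative. The study was set up to find genes expressed differently in derivative-treated and DMSO-treated cells. No group had a replicate, so no test was possible and the spread between cultures is unknown.

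Assembly of the coat starts when SAR1, a small GTPase with the paralogs SAR1A and SAR1B, binds GTP and inserts into the ER membrane. SAR1 then recruits the inner layer, a SEC23 and SEC24 heterodimer. SEC23 stimulates GTP hydrolysis by SAR1, and SEC24 holds the binding sites for cargo. SEC13 and SEC31 form the outer cage. In secretory epithelia such as that of the colon, the pathway carries mucins, receptors and membrane proteins to the Golgi, and parts of it are known targets of the unfolded protein response, the programme that cells start when unfolded proteins build up in the ER.

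The median spot signal over all gene probes was 117 with DMSO, 107 with 5 µM and 110 with 20 µM, and the detection thresholds were 82.5, 79.4 and 80.2. Of 24460 gene probes, 86.2%, 85.6% and 85.7% lay above them. All 8 colon epithelium markers with a probe were detected on all 3 arrays, but CDX2 and CDH17 lay near the threshold, with DMSO signals of 92.6 and 88.6. The summed signals of all 8 were 72162, 54973 and 57255, mostly KRT18. Single markers went both ways at 20 µM against DMSO, with log2 ratios of 0.92 for KRT20, 0.54 for LGALS4, -0.40 for KRT18 and -0.48 for VIL1, and their part in the results was not tested. Of the markers of other cells, ALB, COL1A1, COL1A2 and PTPRC were not detected on any array, and the rest were detected. Apart from LYZ, the brightest in DMSO were DCN at 231, PDGFRB at 148 and CD14 at 146. Summed signals of the other marker lists in DMSO, at 5 µM and at 20 µM were 365, 348 and 362 for 4 hepatocyte genes, 3 of them detected on all arrays, and 735, 693 and 695 for 6 fibroblast genes, 4 of them detected. Those of 4 blood and immune genes, 3 of them detected, were 16135, 12389 and 12486, nearly all of it LYZ, at 15819 in DMSO. In an array of bulk RNA, a change in the share of cells and a change in RNA per cell cannot be told apart.

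Promoter sequence was the property of the coat genes examined beside the array values. RefSeq promoter windows of assembly GRCh38.p14, from 250 bases before to 50 bases after a transcription start, were matched by gene identifier for 9 of the 10 members. SEC24D was the exception. The windows were searched on both strands for binding motifs of ER stress factors, chosen with the array values known. These were the ER stress elements ERSE (CCAAT and CCACG with 9 bases between them) and ERSE-II (ATTGG and CCACG with 1 base between them), the unfolded protein response element UPRE (TGACGTGG) and its core ACGTGG, which every UPRE match also holds. The CRE element (TGACGTCA), the amino acid response element CARE (TGATGNAA) and the antioxidant response element ARE (TGACNNNGC) were added. The UPRE occurred in SEC24A and SEC23A, 2 of 9 members with a window, against 0.927% of 27305 genes with a window. Its core occurred in 6 of 9 members, SEC24A, SEC24C, SEC23A, SEC31A, SEC13 and SAR1A, against 11.6% of genes. The ARE occurred in 4 of 9 members, against 16.1% of genes, and overlapped the UPRE in SEC24A and SEC23A. ERSE, ERSE-II, CRE and CARE matched 0 members. The 9 members had 14 windows, against 35116 windows for the 27305 genes, and each further window gives more room for a match. G and C made up 54.3% to 75.7% of the member windows, and the shares of all genes were not matched for base composition. Nothing is read from these shares. A match is a string of letters and not a measured binding site.

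The windows of SEC24A and SEC23A are shown because they hold the whole UPRE, and those of SEC31A and SEC23B because these genes had the largest ratios at 20 µM among members with a window. Capitals mark the UPRE and its core, ACGTGG or, on the opposite strand, CCACGT. SEC24A lies on chr5:134648535-134648834 (plus strand), SEC23A on chr14:39103186-39103485 (minus), SEC31A on chr4:82900520-82900819 (minus) and SEC23B on chr20:18507298-18507597 (plus). For SEC31A this is 1 of 4 listed windows, and for SEC23B 1 of 2.
SEC24A promoter: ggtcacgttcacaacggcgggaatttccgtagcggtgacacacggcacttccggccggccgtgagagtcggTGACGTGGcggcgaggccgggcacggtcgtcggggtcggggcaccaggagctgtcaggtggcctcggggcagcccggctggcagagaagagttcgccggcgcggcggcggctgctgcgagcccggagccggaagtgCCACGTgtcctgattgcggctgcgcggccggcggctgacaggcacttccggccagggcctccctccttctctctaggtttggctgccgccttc
SEC23A promoter: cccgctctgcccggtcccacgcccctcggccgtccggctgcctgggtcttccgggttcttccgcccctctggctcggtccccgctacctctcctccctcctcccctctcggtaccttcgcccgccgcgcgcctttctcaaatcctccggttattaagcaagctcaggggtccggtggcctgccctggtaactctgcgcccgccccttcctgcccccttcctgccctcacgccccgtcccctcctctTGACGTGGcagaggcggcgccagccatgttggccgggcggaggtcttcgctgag
SEC31A promoter: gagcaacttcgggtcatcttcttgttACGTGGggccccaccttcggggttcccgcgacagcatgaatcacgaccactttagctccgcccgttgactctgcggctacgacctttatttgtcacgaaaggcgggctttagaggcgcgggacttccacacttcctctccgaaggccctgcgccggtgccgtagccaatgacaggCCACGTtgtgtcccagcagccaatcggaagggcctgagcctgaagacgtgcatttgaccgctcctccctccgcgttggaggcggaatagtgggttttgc
SEC23B promoter: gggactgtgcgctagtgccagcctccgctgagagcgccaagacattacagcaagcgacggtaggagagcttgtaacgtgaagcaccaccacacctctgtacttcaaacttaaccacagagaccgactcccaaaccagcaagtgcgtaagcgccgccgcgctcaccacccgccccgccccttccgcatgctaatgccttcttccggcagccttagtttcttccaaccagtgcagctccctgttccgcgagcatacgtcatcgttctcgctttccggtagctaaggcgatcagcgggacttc

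The UPRE of SEC24A started 179 bases before the transcription start and that of SEC23A 4 bases before it. SEC31A held a core in each of its 4 windows, of which the other 3 overlap one another, and neither window of SEC23B held one. SEC24A lies next to SAR1B among the protein-coding genes of chromosome 5. The SAR1B window held 0 of the 7 motifs.

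All 10 genes were detected on all 3 arrays, and each had signals at least 2 times the detection threshold on its brighter probe. Ratios below are log2 ratios of background-corrected and quantile normalized signal with 50 added, so differences of dim genes are understated. Genes represented by 2 detected probes gave the technical spread. Per log2 ratio its SD was 0.14 for 20 µM against DMSO over 2007 such genes, 0.11 for 5 µM against DMSO over 2017 and 0.12 for 20 against 5 µM over 2003. It measures probes on the same RNA and not cultures. Both doses were set against the same DMSO array.

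At 20 µM against DMSO, 9 of the 10 coat genes had ratios above 0 and SEC24B lay below. The median log2 ratio of the coat was 0.33, against 0.0071 for all 16062 genes detected on both arrays. SEC24D was the 1 member at least 2-fold higher, and 0 members were 2-fold lower. Of all genes, 0.442% were 2-fold or more higher and 0.324% that much lower. SEC24D, SEC31A and SEC23B were at least 1.5-fold higher, a level chosen after the values were seen and reached by 1.94% of all genes. Likewise 0 members were 1.5-fold lower, against 1.84% of all genes. Ratios above 0 were found for 52.8% of all genes. Because the members were chosen with these values known, nothing is read from these shares. Without SEC24D the median of the other 9 members was 0.32. When the scanner's local background column was subtracted instead, 5 members lay above 0 and 5 below, the median was 0.12, SEC24B stood at 0.33, and 3 members were at least 2-fold higher.

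At 5 µM against DMSO, 8 of 10 members had ratios above 0, against 52% of all 16075 genes, with SEC24B and SAR1B below. The median log2 ratio was 0.22, against 0.0043 for all genes, and 0.15 without SEC24D. SEC24D was again the 1 member at least 2-fold higher, where 0.0498% of all genes were. This call was lost without background correction, at a log2 ratio of 0.98, and under median scaling, at 0.90. SEC24D was also the 1 member at least 1.5-fold higher, against 0.386% of all genes. No member was 2-fold lower, as 0.00622% of all genes were, or 1.5-fold lower, as 0.0871% were. This median depended on the scaling: it was 0.051 when arrays were scaled to equal medians, and 4 of 10 members then lay below 0. With the scanner background column it was 0.010, with 5 above and 5 below. Under that scaling the 5219 genes with a mean level in the members' range had a median of -0.17 themselves.

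**Figure D1:**
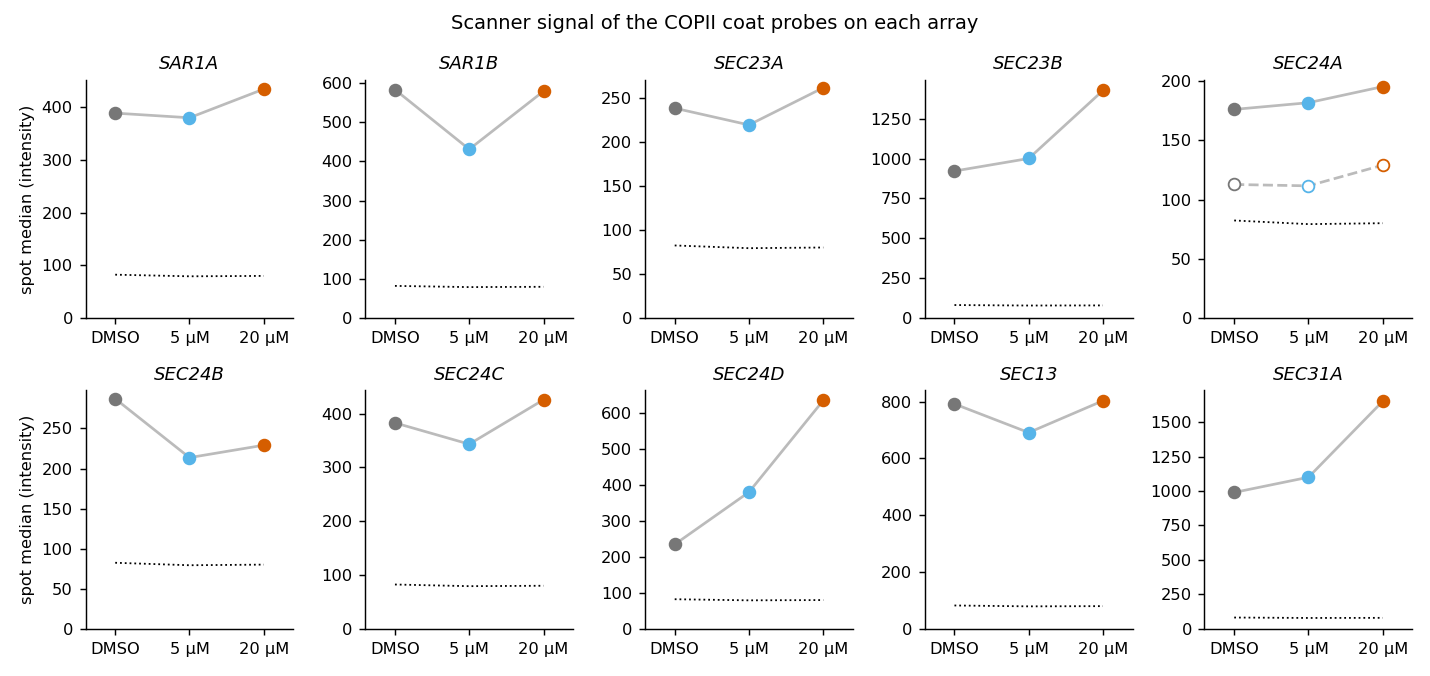
Scanner signal of the COPII probes in HT29 cells after 24 h. Each panel is 1 gene; points are the spot median intensity (linear axis from 0, scaled per gene) on the DMSO, 5 µM and 20 µM arrays, open points on a dashed line are the dimmer probe of SEC24A, and the dotted line is the detection threshold. There is 1 array per group, so there are no error bars. SEC24D climbs from left to right with 235, 380 and 635. SEC24B and SAR1B are highest in DMSO, at 287 and 583, and the other genes are highest at 20 µM. Signals are shown before normalization.

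SEC24 binds cargo and comes in 4 paralogs, of which SEC24A and SEC24B form a subfamily and SEC24C and SEC24D another. SEC24D, which carries fibrillar procollagen among other cargo and is mutated in a syndromic form of brittle bone disease, had a signal of 235 with DMSO, 380 with 5 µM and 635 with 20 µM. The signal was higher at each dose than in DMSO and highest at 20 µM, at 2.85, 4.79 and 7.92 times the detection threshold of the same array. After normalization it was 3.23-fold higher at 20 µM than in DMSO and 2.11-fold higher at 5 µM than in DMSO. Among all genes these ratios ranked 6 of 16062 and 7 of 16075. Between the doses it was 1.53-fold higher at 20 than at 5 µM, rank 123 of 16036. In the authors' value table, which was scaled differently and carries no offset, SEC24D had values of 73.4 with DMSO, 176 with 5 µM and 297 with 20 µM, 4.04-fold higher at 20 µM than in DMSO and 2.39-fold higher at 5 µM than in DMSO.

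SEC24C had signals of 383 with DMSO, 343 with 5 µM and 426 with 20 µM. These signals, before normalization, were lowest at 5 µM. The log2 ratios were 0.34 at 20 µM and 0.15 at 5 µM against DMSO, and the ratio at 5 µM was -0.036 under median scaling. SEC24A, whose promoter window is shown above, had signals of 176, 182 and 195 on its brighter probe in the same order of doses. Its second probe read 113, 112 and 129, at most 1.61 times the detection threshold. The log2 ratios of the pair of probes were close at 20 µM against DMSO, 0.32 and 0.34, and farther apart at 5 µM against DMSO, 0.31 and 0.14. SEC24B, needed for neural tube closure in mice, had signals of 287 with DMSO, 214 with 5 µM and 229 with 20 µM. After normalization SEC24B was the 1 coat gene below DMSO at both doses, with a log2 ratio of -0.19 at each. Before normalization SAR1B was also below DMSO at both. With the scanner background column SEC24B stood at 0.33 at 20 µM, and SAR1B lay below 0 at both doses.

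SEC24D stood apart from its paralogs by more than most pairs of probes of 1 gene do from each other. Such pairs include dim probes, whose differences the added offset narrows. Over all genes with 2 detected probes, 95% of the differences between the log2 ratios of both probes were smaller than 0.43 at 20 µM against DMSO and 0.32 at 5 µM against DMSO. At 20 µM the ratio of SEC24D exceeded that of SEC24C by 1.35, that of SEC24A by 1.37 and that of SEC24B by 1.88. At 5 µM the differences were 0.92, 0.77 and 1.27. SEC24A exceeded SEC24B by 0.52 at 20 µM and by 0.50 at 5 µM. With the scanner background column the difference at 20 µM was 0.018, within the spread between probes.

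**Figure D2:**
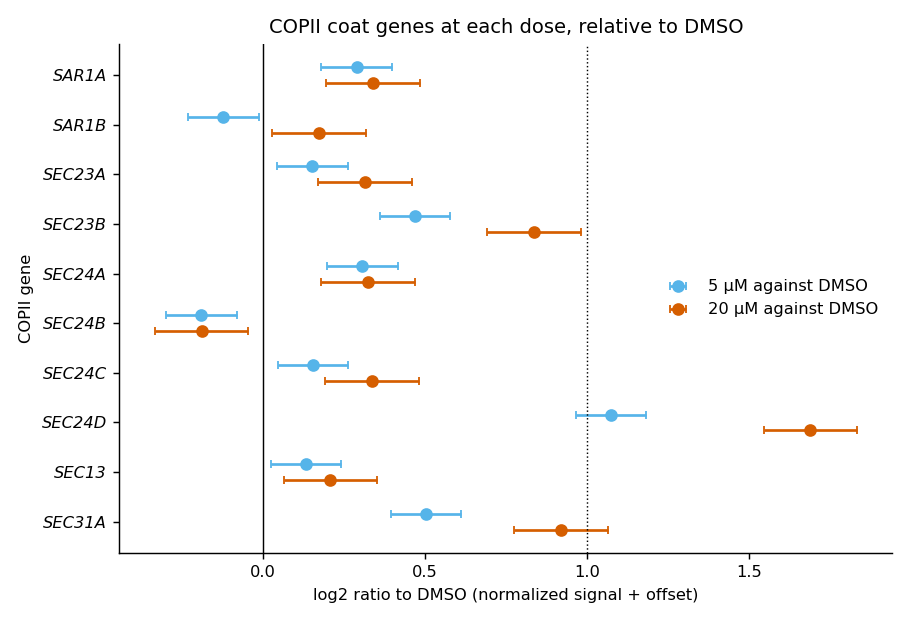
Log2 ratio of normalized signal (horizontal axis) of each COPII gene at 5 µM and at 20 µM against DMSO. Points are single ratios of 1 array each and bars are 1 technical SD (0.11 at 5 µM, 0.14 at 20 µM) from genes with 2 probes; the dotted line marks a 2-fold difference. SEC24D, SEC31A and SEC23B lie farthest to the right at both doses and SEC24B lies left of 0 at both.

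SEC23 activates the GTPase of SAR1 and pairs with SEC24. SEC23B, which is mutated in a congenital dyserythropoietic anaemia, had signals of 922 with DMSO, 1001 with 5 µM and 1426 with 20 µM. The order of the signals followed the dose. It was 1.78-fold higher at 20 µM and 1.38-fold higher at 5 µM than in DMSO, with log2 ratios of 0.84 and 0.47. SEC23A, whose window holds the UPRE close to the transcription start, had signals of 238, 219 and 261. Its log2 ratios were 0.31 at 20 µM and 0.15 at 5 µM against DMSO. The paralogs differed by 0.52 at 20 µM, more than the 0.43 between probes, and by 0.32 at 5 µM, which was not more than the spread between probes but became 1.03 with the scanner background column. Whether a probe also binds the transcript of a paralog was not tested, since no probe sequences were used here.

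SEC31A, the larger subunit of the outer cage, had signals of 990 with DMSO, 1100 with 5 µM and 1651 with 20 µM. It was highest at 20 µM, 1.89-fold higher than in DMSO with a log2 ratio of 0.92, and 1.42-fold higher at 5 µM than in DMSO with a log2 ratio of 0.50. The authors' value table gave it 431 with DMSO, 593 with 5 µM and 838 with 20 µM, 1.94-fold higher at 20 µM than in DMSO. SEC13, its partner in the cage and also a subunit of the nuclear pore, had signals of 792, 691 and 803. Its log2 ratios were 0.21 at 20 µM and 0.13 at 5 µM against DMSO, so the ratio of SEC31A exceeded that of its partner by 0.71 and 0.37. At 5 µM this turned to -1.31 with the scanner background column. Under median scaling SEC13 stood at -0.075 at 5 µM.

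SAR1A and SAR1B start the assembly, and loss of SAR1B causes chylomicron retention disease, in which enterocytes cannot export dietary fat. SAR1A had signals of 389 with DMSO, 380 with 5 µM and 434 with 20 µM and log2 ratios of 0.34 at 20 µM and 0.29 at 5 µM against DMSO. SAR1B had signals of 583, 431 and 579, lowest at 5 µM. Its log2 ratio was 0.17 at 20 µM, near the technical SD of 0.14, and -0.12 at 5 µM, near the SD of 0.11. The paralogs differed by 0.17 at 20 µM, within the spread between probes, and by 0.41 at 5 µM, beyond it.

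Between the doses, all 10 members had a log2 ratio above 0 for 20 against 5 µM, against 49.5% of 16036 genes, with a median of 0.17 against -0.0011. The range ran from 0.00017 for SEC24B to 0.62 for SEC24D. SEC31A at 0.42, SEC23B at 0.37 and SAR1B at 0.29 followed. SEC24B, SEC24A at 0.019, SAR1A at 0.051 and SEC13 at 0.075, 4 of the 10, lay within the technical SD of 0.12. No member was 2-fold apart, where 0.131% of all genes were 2-fold higher and 0.0935% lower. SEC24D was the 1 member at least 1.5-fold higher, against 0.917% of all genes, and 0 were 1.5-fold lower, against 0.886%. With the scanner background column 6 of 10 members lay above 0, SEC24D stood at 0.084 and SEC31A at 2.32.

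By its pair of ratios to DMSO, SEC24D lay nearest to 3 genes among 15920 detected on all 3 arrays, measured as the Euclidean distance of the log2 ratios. ZFAND2A, an arsenite-inducible regulator of the proteasome, was 0.14 away, with ratios of 0.94 at 5 µM and 1.67 at 20 µM. The co-chaperone gene DNAJC25 was 0.17 away, with 0.92 and 1.62. FICD, which modifies the ER chaperone BiP, was 0.20 away, with 1.13 and 1.49. The distance rests on 3 arrays.

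Accessory factors place and regulate the coat. Of 15 listed, 14 were detected, and at 20 µM against DMSO 7 had ratios above 0 and 7 below, with a median of 0.021; 0 were at least 2-fold apart. PREB, the ER membrane protein SEC12 that loads SAR1 with GTP, had signals of 151 with DMSO, 181 with 5 µM and 210 with 20 µM, and was 1.62-fold higher at 20 µM than in DMSO. MIA2, which helps large cargo such as procollagen to leave the ER, was 1.70-fold higher at 20 µM than in DMSO. Its second probe gave a log2 ratio of 0.0067, but read near the detection threshold, at 95.3 with DMSO and 91.8 with 20 µM. TFG, a scaffold at ER exit sites, had a log2 ratio of 0.29. The ubiquitin ligase scaffold CUL3, which acts on SEC31A, had one of 0.33 on 1 probe and -0.041 on the other. At 5 µM the list had a median of 0.036, or -0.074 under median scaling, with PREB at 0.54.

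Cargo receptors of the vesicles had a median log2 ratio of 0.29 at 20 µM over 23 detected genes of 24, with 18 above 0 and 0 at least 2-fold apart. TMED7, a p24 protein that cycles between ER and Golgi, had signals of 606 with DMSO, 733 with 5 µM and 987 with 20 µM and was 1.85-fold higher at 20 µM than in DMSO. YIPF5 stood at 0.60 and CNIH1, a cargo receptor of the cornichon family, at 0.58. YIF1B stood at -0.52, though its second probe gave -0.056. At 5 µM the median was 0.15, which became -0.039 under median scaling.

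Tethers and SNAREs, which dock and fuse the vesicles, had a median of 0.21 at 20 µM over 15 detected genes, with 11 above 0. The Golgi stacking protein gene GORASP2 was 1.79-fold higher than in DMSO, the SNARE gene BET1 1.74-fold and the SNARE gene GOSR2 1.60-fold. TRAPPC2L, a subunit of the TRAPP tethering complex, stood at -0.58. At 5 µM the median was 0.073, but -0.084 under median scaling and -0.062 with the scanner background column.

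The COPI coat returns escaped proteins to the ER. Its list also held KDEL receptors, ARF1, ARF4, GBF1 and the ARFGAP genes. The median of this list was 0.19 at 20 µM over 16 detected genes, with 15 above 0. The 8 detected coatomer subunits, grouped after their values were seen, had a median of 0.32 at 20 µM. ARFGAP3, a GTPase activating protein of that coat, was the 1 gene at least 2-fold higher in these lists besides SEC24D. It had signals of 295 with DMSO, 300 with 5 µM and 536 with 20 µM, and was 2.12-fold higher at 20 µM than in DMSO. ARF4 stood at 0.72, the coat subunit COPB1 at 0.68 and COPG1 at 0.41. At 5 µM the median of the list was 0.17, and 0.013 under median scaling. The clathrin coat and its AP1 and AP2 adaptors, which work beyond the ER, had a median of -0.15 at 20 µM over 14 genes, with 11 below 0, and of -0.076 at 5 µM. AP2S1 stood at -0.56, AP2M1 at -0.39 and AP1S1 at -0.37, and AP2B1 at 0.67. With the scanner background column the medians at 20 µM changed sign for 3 lists, to -0.093 for cargo receptors, -0.062 for tethers and SNAREs and 0.0063 for clathrin, and the clathrin median at 5 µM was 0.011.

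**Figure D3:**
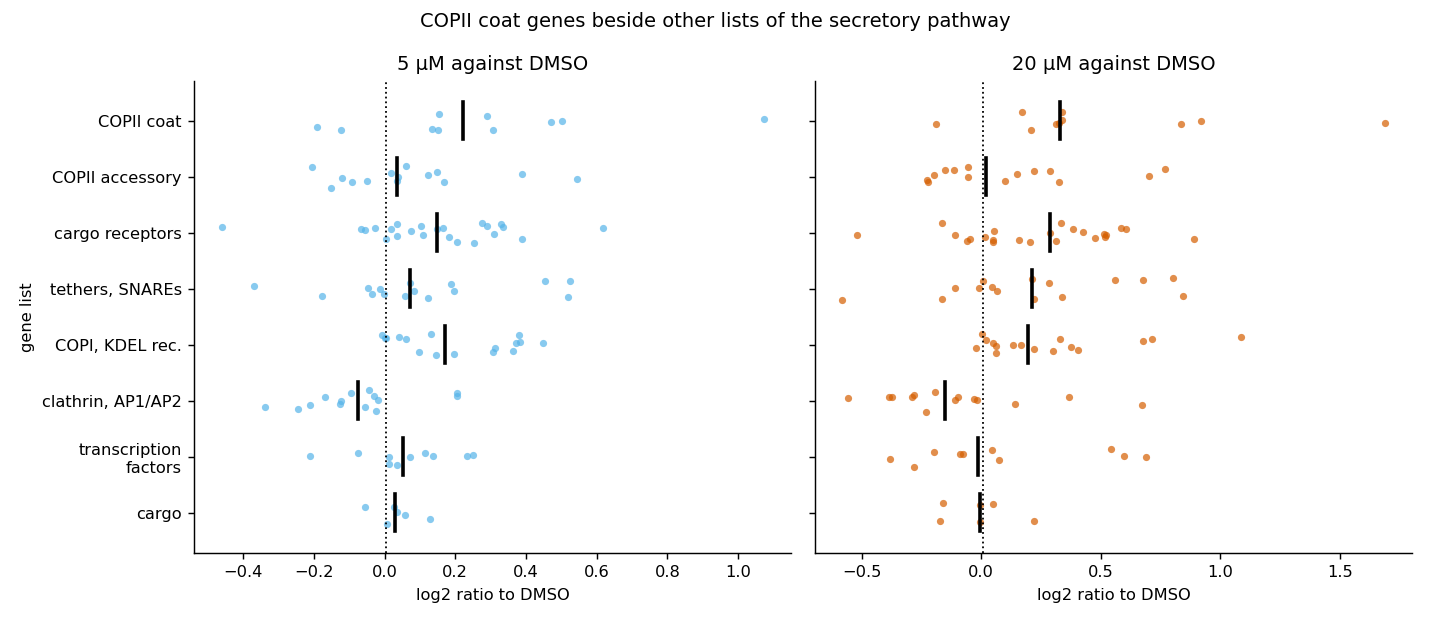
Log2 ratios to DMSO (horizontal axis) at 5 µM and 20 µM for the COPII coat and for 7 other lists of genes of the secretory pathway. Each point is 1 gene detected on both arrays, spread vertically at random; thick bars are list medians and the dotted line is the median of all detected genes. At 20 µM the coat has a median of 0.33, cargo receptors 0.29, and the clathrin list -0.15.

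Transcription factors and proteases known to act on ER and secretory genes had a median of -0.014 at 20 µM over 10 detected genes, 5 above and 5 below 0. ATF6, an ER membrane sensor of the unfolded protein response, had signals of 347 with DMSO, 309 with 5 µM and 487 with 20 µM and a log2 ratio of 0.69 at 20 µM. ATF4 stood at 0.60 with 0.084 on a dimmer probe, CREB3 at 0.54 and CREB3L4 at -0.38. XBP1, CREB3L1 and CREB3L2 were singled out after their values were seen. The log2 ratios of XBP1, whose protein becomes an active factor through splicing that these values do not show, were 0.046 at 20 µM and 0.25 at 5 µM. CREB3L2, which activates SEC23A in mouse chondrocytes, stood at -0.074 and 0.013 in that order of doses, and CREB3L1 at -0.089 and 0.013. Cargo proteins with a described need for a SEC24 paralog or for LMAN1 had a median of -0.0056 over 6 detected genes of 10 at 20 µM. Their largest ratio was that of the coagulation factor gene F8, at 0.22, with F5 at -0.16, STING1 at -0.17 and SCAP at 0.050. Only 2 of the 6 lay above 2 times the detection threshold on both arrays. In DMSO, SCAP read 98.0 and STING1 136, against a threshold of 82.5. The added offset understates differences at such levels, so this median does not show that cargo genes stayed level.

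**Figure D4:**
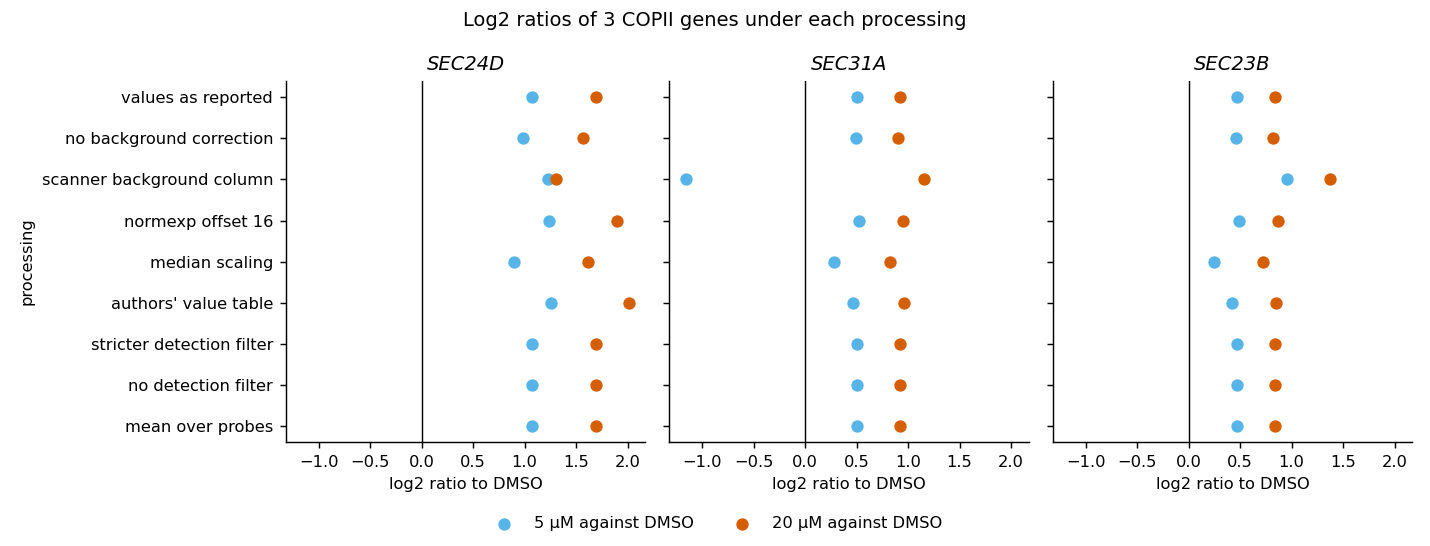
Log2 ratios to DMSO (horizontal axis) of SEC24D, SEC31A and SEC23B at 5 µM and 20 µM under the reported processing and 8 alternatives (vertical axis), 1 point per ratio. All points lie right of 0 except SEC31A at 5 µM under the scanner background column, at -1.16.

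SEC24D kept a ratio above 0 under all 8 alternatives, between 1.31 and 2.01 at 20 µM and between 0.90 and 1.26 at 5 µM. The alternatives in filter and probe rule could not change SEC24D, SEC23B or SEC31A. Each has 1 probe, above 2 times the detection threshold on every array. Only those in background, offset, scaling and source of values bear on these ranges. At 20 µM the ratio of SEC23B lay between 0.72 and 1.37 and that of SEC31A between 0.83 and 1.15. The scanner's local background column changed most members; without it, the range at 20 µM was 1.57 to 2.01 for SEC24D, 0.72 to 0.86 for SEC23B and 0.83 to 0.96 for SEC31A.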

How the data were processed

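Per the labels' protocols, total RNA was amplified as amino allyl aRNA and coupled to a dye. Per the file headers, the scanner files hold the median intensity of each spot, with no background taken off, combined over 3 gains. The authors also deposited a table of linear intensity values with medians of 25 on each array; set against the spot signals, each column lay on a straight line that met 0 at 80.0 in DMSO, 77.3 at 5 µM and 77.6 at 20 µM. No source used here names the scanner software.

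Spot signals were corrected with normexp (offset 50, limma 3.58.1, R 4.3.3), taken to log2 and quantile normalized over 24460 gene probes; tables were handled with Python 3.11.15. Detection required a signal above the mean plus 2 SD of 480 blank and negative control spots, trimmed by 5% at each end. The number of arrays limits the precision. Symbols came from the platform annotation: 21707 probes had 1, 0 had several and 2753 had none, and 21675 matched GRCh38.p14 records. The probe detected on most arrays, then the brightest, stood for a gene. The calculation was tested on simulated data drawn from the DMSO array, with known changes in brighter probes only. Changes at the DMSO level of SEC24D, and differences in background or scaling between arrays, were not simulated. Members and lists were chosen with earlier results of these data known. Named genes are all members, up to 4 genes per list with the largest ratios at 20 µM, and the 3 genes nearest to each member at least 2-fold from DMSO; others are said to be so. With 1 array per group no test was run. The 8 alternatives varied background, offset, scaling, filter, probe rule and source of values.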

Additional observations from a re-analysis of the deposited data

How the results depend on the processing

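No paired analysis was possible because each group had 1 array. With 8 alternatives for each of 49 values, those without a detection filter and with the mean over probes moved 0 of them, and those without background correction and with the stricter filter moved 1 each. Offset 16 moved 2, the authors' deposited values moved 5, and 0 of these turned in sign. Among single members, neither filter could change a ratio, since all members passed both. The mean over probes could change only SEC24A, the 1 member with 2 probes. Median scaling moved 14 and turned 3, and the scanner's background column moved 16 and turned 14, where a turn counts only for a value beyond the technical SD. The median of the coat at 20 µM against DMSO stayed at 0.25 to 0.38 unless the background column was used. Without background correction 0 members were at least 2-fold higher at 5 µM. Median scaling also gave 0, lowered the coat median at 5 µM to 0.051, and turned SEC24C to -0.036, SEC13 to -0.075 and the cargo receptor median to -0.039. It also took the medians at 5 µM of tethers and SNAREs to -0.084, of accessory factors to -0.074 and of the COPI list to 0.013. Genes of the same level shifted by -0.17 under it. With the scanner's background column the coat median became 0.12 at 20 µM and 0.010 at 5 µM, with 3 members at least 2-fold higher at 20 µM. At 20 µM it turned SEC24B to 0.33, SEC24C to -0.096, SEC23A to -0.13, SEC13 to -0.091, SAR1A to -0.25 and SAR1B to -0.33. It also turned the medians of cargo receptors to -0.093, of tethers and SNAREs to -0.062 and of clathrin to 0.0063. At 5 µM it turned SEC31A to -1.16, SAR1A to -0.10 and SEC23A to -0.068, and between the doses SEC24C to -0.18 and SEC23A to -0.060; SEC13, at -0.24, and SAR1A, at -0.15, also lay below 0 there, though their reported ratios were within the technical SD. With the scanner's background column, 430 of 16062 genes were at least 2-fold higher and 466 lower at 20 µM against DMSO. With the reported processing 71 were higher and 52 lower, so the column widened ratios far beyond the coat. The cause was not tested. Signals near the detection threshold, as for the second probe of SEC24A, limit what a ratio can show.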

Other observations

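The p24 proteins, cargo receptors that enter COPII and COPI vesicles, were grouped after their values were seen. Of 10 TMED genes, 9 were detected, and their median log2 ratio was 0.33 at 20 µM and 0.18 at 5 µM against DMSO. At 20 µM, 7 lay above 0 and 2 below, and 0 were at least 2-fold higher. After TMED7 came TMED10, with signals of 1224 with DMSO, 1166 with 5 µM and 1545 with 20 µM and a log2 ratio of 0.52 at 20 µM. TMED9 stood at 0.47 and TMED2 at 0.38, whereas TMED3 stood at 0.014, TMED8 at -0.061 and TMED1 at -0.11.

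LMAN1 and MCFD2 form 1 receptor for coagulation factors, and both were singled out after their values were seen. MCFD2 had signals of 767 with DMSO, 752 with 5 µM and 967 with 20 µM and a log2 ratio of 0.52 at 20 µM, while LMAN1 had 344, 292 and 321 and a ratio of 0.054. SURF4, a receptor for other soluble cargo and also singled out after its values were seen, stood at 0.52 at 20 µM and 0.33 at 5 µM. The subunits of the COPI coatomer, 8 detected of 9, were also grouped after their values were seen. Their median was 0.32 at 20 µM and 0.33 at 5 µM. Between the doses it was -0.0091, with 3 above 0. The whole COPI list had the same median there, and 0.059 under median scaling. All 10 COPII genes were above 0 between the doses, or 6 of 10 with the scanner background column, against 49.5% of all genes. SEC24B, SEC24A, SAR1A and SEC13 lay within the technical SD. The difference between the coats was not tested.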
